A study of Mus musculus with 27 samples.

Results

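The antioxidant and glutathione enzymes were taken as the genes whose symbol names a glutathione S-transferase (Gst) of the alpha, mu, omega, pi, theta, kappa or zeta class, a glutathione peroxidase (Gpx), peroxiredoxin (Prdx), superoxide dismutase (Sod), thioredoxin (Txn) or thioredoxin reductase (Txnrd), together with Cat, Nqo1, Gclc, Gclm, Gss, Gsr and Srxn1. The set held 50 of the 36333 genes in the expression table. It was described in liver, omental (abdominal) adipose tissue and skeletal muscle of MlxKO mice aged 5 or 20 months, with 4 mice per tissue at 5 months and 5 mice per tissue at 20 months, 27 samples in all. The animals were Mlx Flox/Flox and carried the allele Gt(ROSA)26Sortm1(cre/ERT2)Tyj on a B6.129 background. All of them, young and old, had received tamoxifen at weaning (75 mg/kg intraperitoneally on 5 days) to activate a Cre recombinase driven body-wide from the ROSA26 locus, so that the comparison is one of age within knockout animals. Male mice were used according to the study's methods, and no mice with intact Mlx were analysed here. The 4 mice at 5 months each gave all 3 tissues, as their names show (X5L5001, X5F5001 and X5S5001 are the liver, adipose tissue and muscle of 1 mouse). The 20-month tissues carried different mouse numbers, namely 16, 17, 18, 19 and 74 for liver, 36 to 40 for adipose tissue and 56 to 60 for muscle. The labels put these older mice at 20 months, while the column headings of the expression table carry 18 for all 15 of them. The study's RT-PCR values for older mice whose numbers end in the same digits are also listed at 18 months. The labels' age is used throughout.

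Mlx is the dimerization partner through which the Mondo proteins, which sense glucose, bind DNA. The enzymes studied here work in relays. Superoxide dismutases turn superoxide into hydrogen peroxide. Catalase, the glutathione peroxidases and the peroxiredoxins then remove peroxides. The glutathione peroxidases and peroxiredoxins, unlike catalase, draw their electrons from glutathione or thioredoxin. Glutathione reductase (Gsr) and the thioredoxin reductases regenerate these carriers at the cost of NADPH. Glutathione S-transferases attach glutathione to lipid aldehydes and foreign compounds, and are abundant in liver. Many of these genes are targets of the transcription factor Nrf2 (Nfe2l2), which Keap1 holds in check and which binds antioxidant response elements.

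The deposited values are reads per gene divided by 1 factor per sample. They are headed CPM but summed to between 559419 and 1395315 per sample, from 14384695 to 25673919 reads on genes, so that 1 read was worth 0.0234 to 0.0806. Tissue markers matched the labels. The sum of 8 skeletal muscle genes was 138800 to 176600 in muscle and at most 0.301 in liver, Adipoq was 531.8 to 1182 in adipose tissue and at most 0.08 in liver, and Alb was 26970 to 125300 in liver and at most 222 in muscle. Mlx itself did not pass the test for age in any tissue. A whole-gene value does not check the deletion, which all animals carry. The study's own RT-PCR left more Mlx transcript in muscle than in liver. In adipose tissue and muscle its values ran somewhat higher in the older mice, with overlap. Age and the amount of Mlx left therefore cannot be fully told apart in those tissues. Because these are bulk tissues, fewer cells of a type and less RNA per cell cannot be told apart, and p-values measure the spread between these mice.

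Promoter sequences are shown for members that changed with age and that held a core antioxidant response element, searched as TGACNNNGC or TGAGNNNGC on both strands of a window of the 250 bases before the annotated start (RefSeq, GRCm38.p6). Of the 44 members with a window, 7 held TGACNNNGC, against 10.2% of all 32817 windows, and 9 held TGAGNNNGC, against 14.4%. Each member counted if any of its windows matched, whereas the percentages are of single windows, so they are not like units. Windows on 1 chromosome, which held no member, were left out of the percentages. Among the 22 members that changed with age in at least 1 tissue, 19 had a window, in which TGACNNNGC was found in Gclm, Gsta3 and Gstm5 and TGAGNNNGC in Gstm5, Gstp1, Gstp2, Gstt1 and Srxn1. The E-box CACGTG was found in 2 members with a window, against 6.02% of all windows. The carbohydrate response element, which Mlx-containing dimers are known to bind, was rare in either form searched. A pair of CACGTG sequences 5 bases apart was found in 0% of all windows. The degenerate consensus, added after the data were seen, was found in 0.0274% of all windows and in 0 of the 44 members with a window. The sequences below run 5′ to 3′ on the strand of the gene, each with 20 bases on either side of the match or up to the annotated start, and capitals mark the match, which reads in the reverse complement where it begins with GC.
Srxn1, chr2:152105346-152105507, plus strand: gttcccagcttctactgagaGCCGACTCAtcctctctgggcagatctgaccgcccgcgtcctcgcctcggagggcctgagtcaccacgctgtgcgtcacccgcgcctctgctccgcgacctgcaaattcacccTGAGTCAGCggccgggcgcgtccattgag
Gclm, chr3:122245403-122245451, plus strand: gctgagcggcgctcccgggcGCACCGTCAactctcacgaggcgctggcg
Gsta3, chr1:21240444-21240492, plus strand: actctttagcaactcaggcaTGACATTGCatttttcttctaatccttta
Gstp1, chr19:4037913-4038006, minus strand: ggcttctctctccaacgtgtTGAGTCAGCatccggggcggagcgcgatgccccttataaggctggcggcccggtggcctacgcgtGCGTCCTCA
Gstp2, chr19:4042282-4042330, minus strand: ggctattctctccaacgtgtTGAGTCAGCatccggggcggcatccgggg
Gstm5, chr3:107895638-107895840, plus strand: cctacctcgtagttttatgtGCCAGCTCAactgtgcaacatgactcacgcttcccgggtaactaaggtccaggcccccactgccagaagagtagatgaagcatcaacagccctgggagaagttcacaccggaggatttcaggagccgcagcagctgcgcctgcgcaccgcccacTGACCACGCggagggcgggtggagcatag
Gstt1, chr10:75797792-75797840, minus strand: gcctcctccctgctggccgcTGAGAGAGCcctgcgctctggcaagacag
Gstp1 and Gstp2, neighbouring genes on chromosome 19, shared the same match in nearly the same surroundings. Srxn1, Gstm5 and Gstp1 each held 1 match on each strand. A match is a description of letters only.

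Levels at 5 months were compared first. On the scale of the deposited values, most members were called higher in liver in each of its comparisons. That scale differs between tissues. At 5 months the values summed to 1319547 to 1395315 in liver and to 559419 to 646657 in adipose tissue. As a share of each sample's sum, the members made up 1.06 to 1.22% in liver and 0.89 to 1.24% in adipose tissue, which overlapped. In muscle the share was 0.296 to 0.329%. Of the 46 members tested, 39 were higher in liver than in adipose tissue and 6 were lower, where 36.5% and 39.9% of all genes tested were called in those directions. Against muscle, 31 were higher in liver and 9 lower, with 36% and 36.8% among all genes. Adipose tissue was higher than muscle for 18 members and lower for 11, against 41.9% and 30.9% of all genes. Genes were called at an adjusted p under 0.05 in limma, with Benjamini-Hochberg adjustment over 15572 genes, on log2(value + 1).

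The order within a tissue was read per kilobase of transcript. In liver the highest mean values per kilobase at 5 months were those of Gstp1 (2254), Gpx1 (1796), Cat (1454) and Sod1 (1205). In adipose tissue they were Gpx1 (1024), Gpx3 (644), Cat (495) and Sod1 (312). In muscle the order was Gpx3 (265), Gpx4 (258) and Sod1 (192), so that the plasma peroxidase Gpx3 and the lipid peroxidase Gpx4 led a lower and flatter range. The first 2 muscle genes were closer to each other than the spread of either among the mice, the deposited values being 423 ± 115 for Gpx3, the longer transcript, and 247 ± 59.2 for Gpx4 (SD, n = 4).

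**Figure D1:**
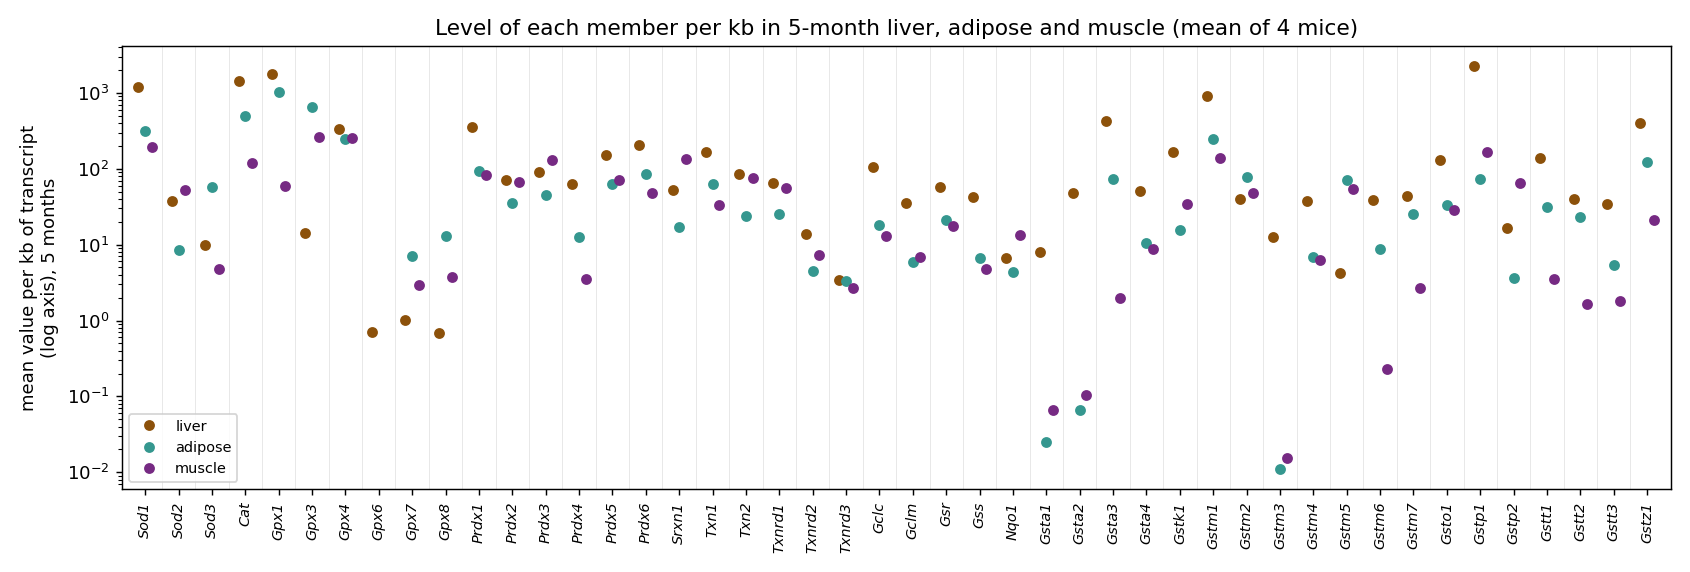
Mean normalised value per kilobase of transcript at 5 months (vertical, log scale) for each member in liver, adipose tissue and muscle (n = 4 mice each), with members at 0 not drawn. Gstp1 at 2254 tops liver, Gpx1 at 1024 tops adipose tissue and Gpx3 at 265 tops muscle.

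Tissue contrasts were steep for single members. Gsta3, an alpha-class transferase, was 7.32 ± 0.27 (log2 difference ± SE) higher in liver than in muscle (limma adjusted p = 1.01e-18). Gpx1, the cytosolic selenium-dependent peroxidase, was 4.89 ± 0.13 higher in liver than in muscle and 4.08 ± 0.13 higher in adipose tissue than in muscle. In the other direction Gpx3 was 5.56 ± 0.33 lower in liver than in adipose tissue (adjusted p = 7.44e-14), and Gstp2 and Srxn1 were 3.76 and 2.81 higher in muscle than in adipose tissue (SE 0.30 and 0.46). These differences are on the log2(value + 1) scale of the deposited values and cover 5 months only, when the same 4 mice gave all tissues.

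At 20 against 5 months, 46 members could be tested in liver, 42 in adipose tissue and 41 in muscle, after a filter that kept genes reaching a value of 1 in 4 or more samples of the tissue. In liver Gpx6, Gpx7 and Gpx8 met this filter at 20 months and not at 5 months, and in muscle Gsta3 met it at 5 months and not at 20 months, so that the direction of these 4 was favoured by the filter itself. Gpx2, Gpx5, Gsto2 and Gstt4 were tested in none of the tissues, with at most 44 reads in any sample (Gsto2 in adipose tissue). Gpx6 had 0 reads in every adipose and muscle sample, where a count of 0 allows values up to 0.07 to 0.117 and 0.196 to 0.242 (3 reads, counting error only). Gsta1, Gsta2 and Gstm3 fell below the filter in adipose tissue and muscle, with 0 to 19 reads per sample.

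In liver 7 members were higher at 20 months and 2 were lower, beside 10% and 9.79% of the 12654 genes tested. In adipose tissue 5 were higher and 4 lower, beside 9.75% and 9.35% of 14005 genes. In muscle 4 were higher and 6 lower, beside 9.13% and 10.1% of 12720 genes. As shares of the members tested these were 15.2% and 4.35% in liver, 11.9% and 9.52% in adipose tissue and 9.76% and 14.6% in muscle, so the number of members called lay near the share over all genes. The median log2 change of the members was 0.23 in liver, 0.10 in adipose tissue and 0.09 in muscle, and that of all genes tested was 0.00, 0.01 and 0.02. Altogether 22 members changed in at least 1 tissue, 18 of them in 1, 2 in 2 (Gpx1 and Gstm2) and 2 in all 3 (Gpx4 and Gsta3). The same count was not made over all genes, so these numbers are not a result about the members as a set. Without Gsta3, which entered the muscle test through the 5-month samples alone, muscle had 9 calls, 5 of them lower. Other scalings left these medians of all genes within 0.1 except 1 in liver, where leaving the 20 most abundant genes out of the scaling moved it to 0.16. The split of higher to lower calls depended on the scaling, being 17 to 2 in liver and 8 to 5 in muscle without the 20 most abundant genes, 11 to 1 and 6 to 6 after quantile normalization, and 5 to 3, 5 to 6 and 2 to 6 in liver, adipose tissue and muscle after correction for transcript length and GC content.

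**Figure D2:**
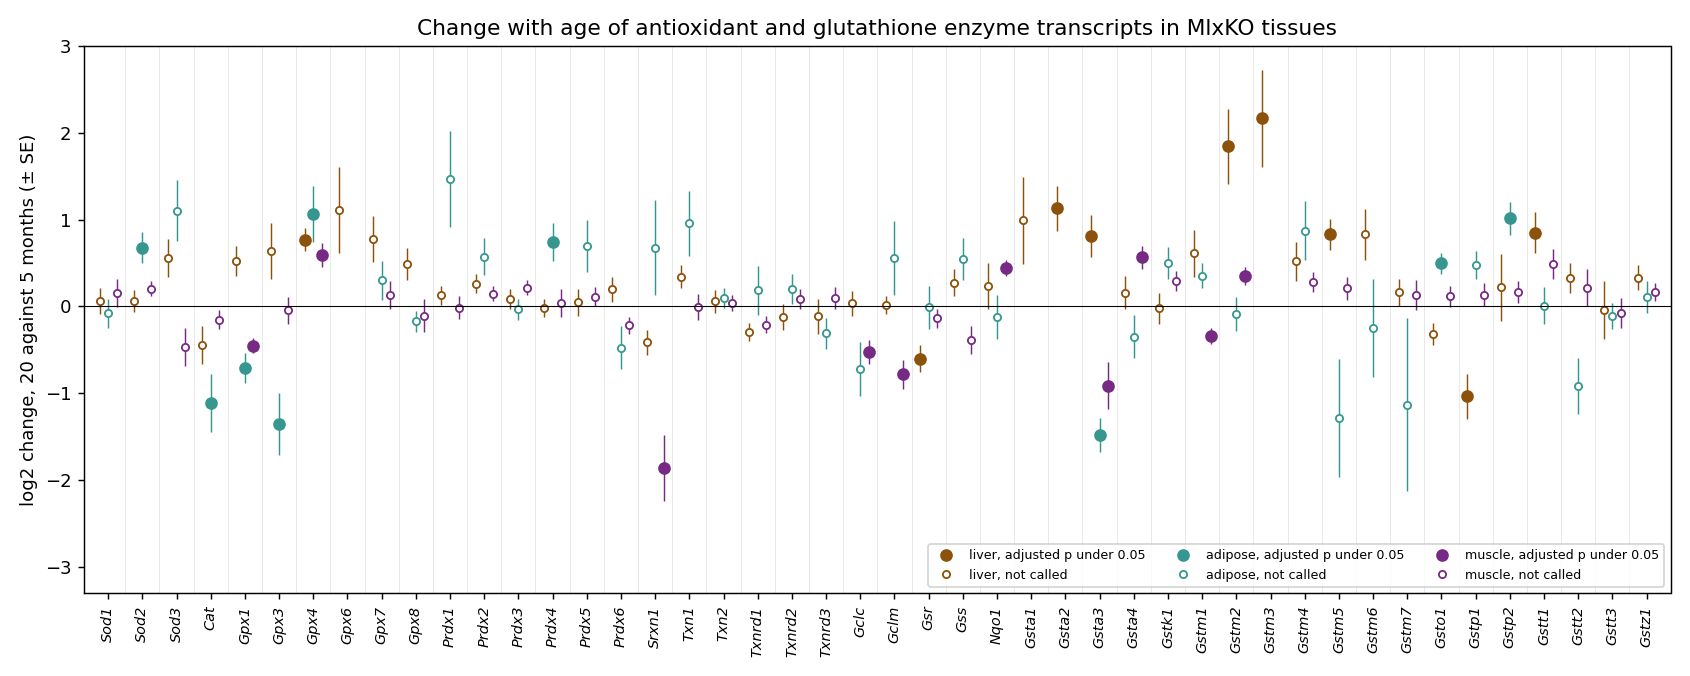
Log2 change at 20 against 5 months (vertical, on log2(value + 1)) of each member tested in liver, adipose tissue and muscle, with bars for the SE and filled symbols for an adjusted p under 0.05. Gpx4 lies above 0 in all 3 tissues, and Gsta3 lies above 0 in liver at 0.81 and below 0 in adipose tissue at -1.48.

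Gpx4 (chr10:80047166-80056439), the selenoprotein that reduces lipid hydroperoxides within membranes and protects cells from ferroptosis, was higher at 20 months in every tissue. In liver its values were 311, 286, 367 and 303 at 5 months and 469, 505, 644, 497 and 593 at 20 months, 1.70-fold higher (log2 change 0.77 ± 0.13, limma adjusted p = 0.00839). In muscle they were 210, 187, 314 and 279 against 400, 337, 356, 360 and 379, 1.51-fold higher (0.59 ± 0.14, adjusted p = 0.0164). In adipose tissue they were 199, 97.4, 273 and 372 against 414, 492, 457, 429 and 421, 2.09-fold higher (1.06 ± 0.32, adjusted p = 0.0472). The ages did not overlap in any of the 3 tissues. The 5-month adipose values spread most widely. The adipose call was lost with no filter (adjusted p = 0.0807), in edgeR on the recovered reads (adjusted p = 0.0578) and in 6 of the 9 fits that left out 1 mouse, and without X5F5001 the change was 0.69. The muscle call was lost with all 27 samples in 1 fit (adjusted p = 0.0846). Of the 50-base words of the Gpx4 transcript, 34.7% also occur in other genes, most in Gpx4-ps2, and how reads were divided between them was not tested.

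Gpx1 moved differently by tissue. Its adipose values fell from 1156, 1284, 1036 and 915 to 759, 713, 739, 567 and 574 (log2 change -0.71 ± 0.18, limma adjusted p = 0.0293). Its muscle values fell from 61.3, 67.8, 67.2 and 58.5 to 47.1, 46.5, 43.5, 52.0 and 42.8 (-0.45 ± 0.09, adjusted p = 0.00902). In liver the values were 1734, 1672, 2081 and 2214 against 2523, 2476, 3334, 2853 and 2656 (0.53 ± 0.17, adjusted p = 0.0515), which missed the threshold although every 20-month liver lay above every 5-month liver. The change differed between liver and adipose tissue by 1.24 ± 0.17 (adjusted p = 8.1e-05) and between liver and muscle by 0.98 ± 0.17 (adjusted p = 0.000666).

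Gsta3 (chr1:21240565-21265575) also split by tissue. In liver it was 665, 481, 684 and 616 at 5 months and 771, 1446, 1646, 779 and 951 at 20 months (0.81 ± 0.24, limma adjusted p = 0.0395), with mice 17 and 18 highest. In adipose tissue it fell from 152, 103, 84.9 and 82.9 to 34.7, 42.4, 44.4, 31.1 and 30.7, 0.36 times the younger level (-1.48 ± 0.20, adjusted p = 0.00737). In muscle, where it was scarce, it was 2.08, 3.22, 3.91 and 2.23 against 0.326, 1.4, 2.53, 0.882 and 0.57 (-0.91 ± 0.27, adjusted p = 0.038). The ages overlapped there, the gene had met the filter through the 5-month mice alone, and with no filter the call was lost (adjusted p = 0.0798). The highest muscle values at 5 and 20 months were those of mice X5S5238 and 58. Muscle of these mice also had the most Alb at each age (222 and 43.1). Among the other mice the order of Alb differed from that of Gsta3. Whether liver transcripts in the muscle samples contributed was not tested. The liver and adipose changes differed by 2.29 ± 0.36 (adjusted p = 0.000205), the liver and muscle changes by 1.72 ± 0.36 (adjusted p = 0.0023). The liver call was lost when the length and GC trend was removed (adjusted p = 0.0861) and the muscle call in edgeR (adjusted p = 0.0659).

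**Figure D3:**
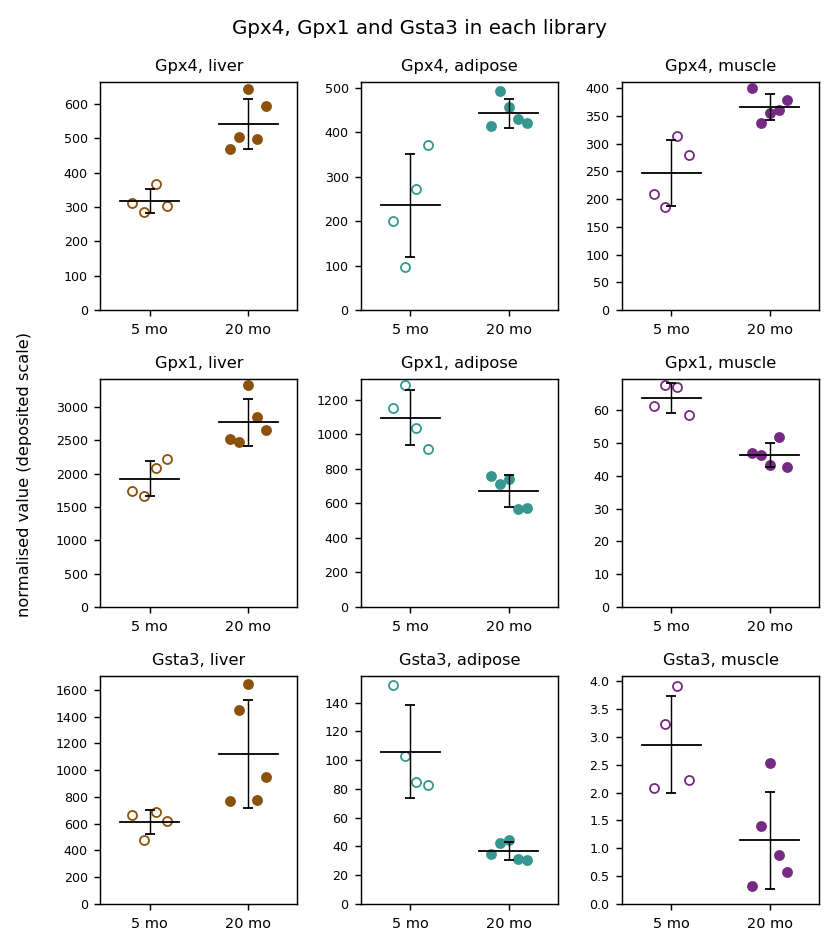
Normalised values of Gpx4, Gpx1 and Gsta3 in every sample (vertical) by tissue and age, with open symbols for 5 months (n = 4), filled symbols for 20 months (n = 5) and bars for the mean ± SD. Gpx4 is higher at 20 months in all 3 tissues, while Gsta3 in adipose tissue drops from between 82.9 and 152 to between 30.7 and 44.4.

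The other liver changes lay mainly among the transferases, which were 19 of the 46 members tested. Of these 19, 6 rose and 1 fell, beside 10% higher and 9.79% lower among all genes tested in liver. Gstm3 was 22.7, 9.53, 17.5 and 16 at 5 months and 28.3, 202, 128, 27.1 and 110 at 20 months (log2 change 2.17 ± 0.56, limma adjusted p = 0.0245). Gstm2 was 29.7, 32.5, 54.3 and 52.4 against 53.6, 241, 238, 98.5 and 240 (1.84 ± 0.43, adjusted p = 0.0179). In both mu-class genes mice 17, 18 and 74 were high, whereas mouse 16 lay within or just above the younger livers, as did mouse 19 for Gstm3. Gsta2, alpha class, was 48.9, 31.3, 36.1 and 49.0 against 74.7, 137, 129, 53.0 and 83.9 (1.13 ± 0.26, adjusted p = 0.0179). Gstt1, theta class, was 110, 92.9, 174 and 199 against 206, 285, 315, 268 and 188 (0.85 ± 0.23, adjusted p = 0.031). Gstm5, scarce in liver, was 4.14, 3.13, 5.42 and 3.36 against 5.70, 8.37, 8.11, 7.67 and 9.52 (0.83 ± 0.18, adjusted p = 0.0136). Gsta2 and Gstm5 did not overlap between the ages, and Gstt1 and Gstm2 did.

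Gstp1, the pi-class transferase and the top member per kilobase in liver, fell there from 2264, 1988, 1767 and 1383 to 1647, 670, 778, 759 and 843, 0.49 times the younger level (-1.04 ± 0.26, limma adjusted p = 0.0219). The 20-month livers other than mouse 16 lay below all of the younger ones, and quantile normalization lost the call (adjusted p = 0.0546). Gsr, which regenerates reduced glutathione, fell from 163, 163, 142 and 151 to 136, 102, 104, 105 and 71.2 (-0.60 ± 0.16, adjusted p = 0.0252), with no overlap. Several of these genes share sequence with close copies. The share of their 50-base words found elsewhere was 90.5% for Gsta1, 54.3% for Gstp2, 49.8% for Gsta2, 33.7% for Gstp1 and 28.8% for Gstm3, so their separate values are uncertain.

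Catalase, which breaks down hydrogen peroxide in peroxisomes, was 3743, 3732, 3716 and 4001 in 5-month livers and 3197, 3370, 3021, 3006 and 1738 in 20-month livers (-0.44 ± 0.22, limma adjusted p = 0.169), with mouse 74 lowest. Of the 6 glutathione peroxidases tested in liver, Gpx4 alone passed. Gpx3 had a log2 change of 0.64 (adjusted p = 0.175), and Gpx6, Gpx7 and Gpx8 were at or near the filter's limit at 5 months. None of the 3 superoxide dismutases, 7 peroxiredoxin and sulfiredoxin genes, 5 thioredoxin system genes or Nqo1 passed in liver. Prdx1 to Prdx6 had log2 changes between -0.02 and 0.26, Sod1 0.06, Sod2 0.07 and Sod3 0.56, Txn1 0.34, Txn2 0.06, Txnrd1 -0.29, Txnrd2 -0.13 and Txnrd3 -0.11. Srxn1 was 130, 164, 148 and 150 against 156, 100, 101, 110 and 94.1 (adjusted p = 0.068). The glutathione synthesis genes Gclc, Gclm and Gss had changes of 0.04, 0.02 and 0.27.

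Other transcripts moved with age in the same livers. The summed value of 8 hepatocyte genes was 128500 to 189400 at 5 months and 54250 to 114500 at 20 months, lowest in mouse 74, with 2 of the 8 genes lower. The erythroid sum was 664 to 842 against 953 to 1257, with 4 of 5 genes tested higher and no overlap, and the B-cell sum 2.25 to 9.52 against 10.4 to 20.8, with 5 of 6 higher. The 7 periportal genes summed to 12460 to 17580 against 5039 to 8825, and 5 of the 7 were lower. The macrophage sum was 292 to 497 against 325 to 921, with 3 of 9 genes higher, and mouse 16 lay at 325 while the other older livers were at 671 or more. Of the female-biased liver genes 3 of 4 tested were higher (sums 43.7 to 213 against 77.3 to 432), and of the male-biased genes 1 of 9 was lower. Their part in the member changes was not tested. Without mouse X5L5001, 7 of the 9 liver calls were lost, namely Gsr, Gsta2, Gsta3, Gstm2, Gstm3, Gstp1 and Gstt1 (adjusted p 0.0546 to 0.112). Gpx4 and Gstm5 passed in each of the 9 fits that left out 1 mouse, although Gstm5 was lost with all 27 samples in 1 fit (adjusted p = 0.189) and Gstt1 with no filter (0.0572) or with length and GC corrected (0.0603). Calls numbering 4, 6 and 4 were lost without mice 17, 18 and X5L4299, 2 without X5L5239 and 1 each without 19 and X5L5238.

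**Figure D4:**
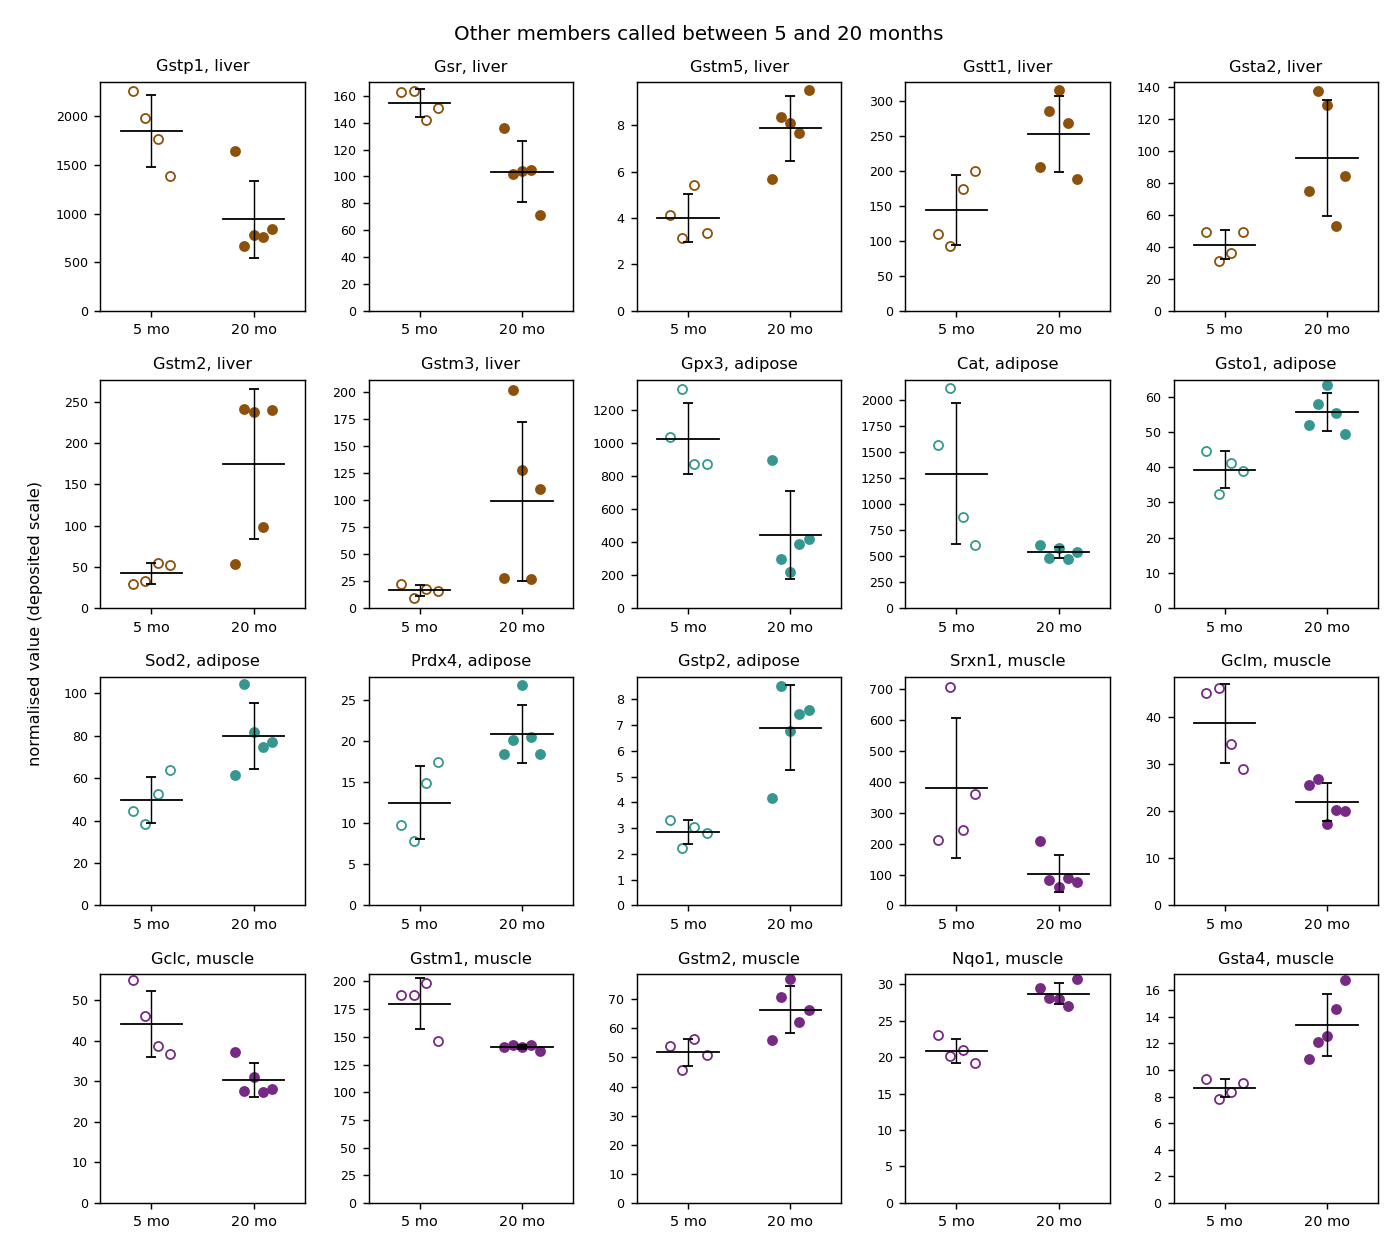
Normalised values in every sample (vertical, 1 panel per gene and tissue) of the other members that passed the age test, with open symbols for 5 months (n = 4), filled symbols for 20 months (n = 5) and bars for the mean ± SD. Muscle Srxn1 falls from between 213 and 705 to between 58.4 and 207, and liver Gstp1 keeps 1 older mouse at 1647 beside 4 between 670 and 843.

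In adipose tissue Gpx1, Gpx3 and Cat, the first 3 members per kilobase at 5 months, fell. Beside Gpx1, Gpx3, the secreted plasma peroxidase, was 1033, 1326, 874 and 874 at 5 months and 898, 299, 220, 388 and 416 at 20 months (-1.36 ± 0.36, limma adjusted p = 0.0342). Mouse 36 lay among the younger mice and the other 4 lay well below them. Cat was 1566, 2117, 881 and 612 against 603, 485, 582, 475 and 537 (-1.11 ± 0.33, adjusted p = 0.0448). Mouse X5F5239 at 612 was close to the older mice, so the groups barely separated. In the same samples the erythroid sum was 725 to 1734 against 311 to 794, with 2 of 5 genes tested lower, and the skeletal muscle sum 328 to 908 against 105 to 592, with 0 of 8 lower. Their part was not tested.

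The adipose members that rose, other than Gpx4, were of moderate or low level. Gstp2 was 3.32, 2.22, 3.05 and 2.82 against 4.16, 8.53, 6.78, 7.43 and 7.59 (1.01 ± 0.19, limma adjusted p = 0.0144). Prdx4, the peroxiredoxin of the endoplasmic reticulum, was 9.73, 7.83, 14.9 and 17.4 against 18.4, 20.1, 26.8, 20.5 and 18.4 (0.74 ± 0.22, adjusted p = 0.0431). The mitochondrial dismutase Sod2 was 44.3, 38.5, 52.3 and 63.8 against 61.4, 104, 81.6, 74.5 and 76.9 (0.67 ± 0.18, adjusted p = 0.0342). Sod2 overlapped between the ages and the other 2 did not. Gsto1, omega class, was 44.7, 32.3, 41.3 and 39.1 against 52.1, 58.1, 63.3, 55.4 and 49.4 (0.49 ± 0.12, adjusted p = 0.0269), with no overlap. The extracellular dismutase Sod3 was 144, 90.8, 319 and 315 against 359, 474, 358, 416 and 456 (1.10 ± 0.35, adjusted p = 0.0536) and missed the threshold without overlap.

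A further group varied most among the older adipose samples and did not pass. Prdx1, a cytosolic peroxiredoxin, was 202, 160, 236 and 264 at 5 months and 235, 532, 1965, 927 and 304 at 20 months (limma adjusted p = 0.0822). Srxn1, which restores over-oxidized peroxiredoxins, was 58, 58.3, 42.8 and 34.7 against 31.4, 71.3, 215, 155 and 33.9 (adjusted p = 0.366). Gclm, the modifier subunit of the rate-limiting enzyme of glutathione synthesis, was 37.6, 37.8, 27.9 and 29.5 against 24.6, 38.5, 114, 88.6 and 28.6 (adjusted p = 0.343). In each of the 3 genes mice 38 and 39 were highest, while mouse 36 fell within or below the younger range. Txn1, Txnrd1, Gss and Gsr were also highest in mice 38 and 39, and outside the members so were Hmox1 (421 and 353) and Slc7a11 (8.74 and 9.73). The macrophage sum was 849 to 1758 at 5 months and 1166, 3647, 5518, 2784 and 1647 in mice 36 to 40, with 2 of 8 genes tested higher and 1 lower. Whether macrophages contributed was not tested.

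The remaining named members did not pass in adipose tissue. Sod1 had a log2 change of -0.08, Prdx2 0.57, Prdx3 -0.03, Prdx5 0.69, Prdx6 -0.47, Gclc -0.72, Gss 0.55, Gsr -0.01, Nqo1 -0.12, Txn1 0.96, Txn2 0.10, Txnrd1 0.19, Txnrd2 0.20 and Txnrd3 -0.31. The adipocyte gene sum covered a like range at both ages (13500 to 22080 and 13980 to 20550), and none of its 8 genes passed. The B-cell sum was 5.54 to 23.8 against 19.4 to 206, with 6 of 6 genes higher, and the endothelial sum 581 to 1362 against 376 to 683, with 2 of 5 lower. Their part was not tested. Gsta3 and Gstp2 passed in each of the 9 fits that left out 1 mouse. Without mouse X5F4299, X5F5001, 37 or 39 all 7 other calls were lost (adjusted p 0.0522 to 0.122), and without mouse 38 or 40 6 of them were lost (0.0518 to 0.0875).

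In muscle Srxn1 and both subunits of glutamate-cysteine ligase, Gclc and Gclm, fell. Srxn1 was 213, 705, 244 and 359 at 5 months and 207, 83.2, 58.4, 88.3 and 75.0 at 20 months, 0.27 times the younger level (-1.86 ± 0.38, limma adjusted p = 0.0092). Mouse X5S5001 was highest, and mouse 56 at 207 lay just under the lowest young mouse. Gclm fell from 45.1, 46.2, 34.4 and 29.1 to 25.6, 26.9, 17.2, 20.2 and 20.0 (-0.78 ± 0.17, adjusted p = 0.0108), with no overlap. Gclc, the catalytic subunit that pairs with it, fell from 54.9, 46.1, 38.7 and 36.8 to 37.2, 27.7, 31.0, 27.3 and 28.1 (-0.52 ± 0.14, adjusted p = 0.0229). Mouse 56 was the highest older mouse and gave the only overlap. Gss and Gsr had log2 changes of -0.39 (adjusted p = 0.106) and -0.14.

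Among the muscle transferases Gstm1 fell slightly, from 187, 187, 199 and 146 to 141, 142, 141, 142 and 137 (-0.34 ± 0.10, limma adjusted p = 0.0309). Gstm2 rose from 54.0, 45.6, 56.2 and 51.0 to 56.1, 70.8, 77.0, 62.2 and 66.3 (0.35 ± 0.11, adjusted p = 0.0406). Gsta4, which handles the lipid peroxidation product hydroxynonenal, rose from 9.30, 7.82, 8.38 and 9.06 to 10.8, 12.1, 12.6, 14.6 and 16.7 (0.56 ± 0.13, adjusted p = 0.0159). Gstm1 and Gsta4 did not overlap between the ages, and Gstm2 did. The quinone reductase Nqo1 rose from 23.1, 20.2, 21.1 and 19.2 to 29.5, 28.2, 28, 27 and 30.8 (0.44 ± 0.09, adjusted p = 0.0101), whereas Gclm, Gclc and Srxn1 fell. Scaling without the 20 most abundant genes lost the Gstm1 call (adjusted p = 0.0772), and removing the length and GC trend lost those of Gstm2 (adjusted p = 0.145) and Gsta4 (adjusted p = 0.0649).

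No superoxide dismutase, thioredoxin system gene, peroxiredoxin or Cat passed in muscle. Log2 changes were 0.15 for Sod1, 0.20 for Sod2, -0.47 for Sod3, -0.15 for Cat and -0.04 for Gpx3, between -0.22 and 0.21 for Prdx1 to Prdx6, and between -0.21 and 0.09 for the thioredoxin system. In the same muscles the heat shock gene Hspa1b was 106 to 4038 at 5 months, highest in mouse X5S5001 as was Srxn1, and 11.4 to 47.0 at 20 months, highest in mouse 56 as was Srxn1. The fibroblast sum was 1018 to 1446 against 525 to 898 (5 of 6 genes lower), the macrophage sum 153 to 263 against 88.7 to 168 (4 of 8 tested lower), and the skeletal muscle sum 150200 to 176600 against 138800 to 166000. Their part in the member changes was not tested. Srxn1, Gclm, Gpx1, Gpx4, Nqo1 and Gsta4 passed in each of the 9 fits that left out 1 mouse. With all 27 samples in 1 fit Gclm (adjusted p = 0.0757), Gpx4 (0.0846), Nqo1 (0.216) and Gsta4 (0.066) were lost. In the fits that left out 1 mouse, Gclc, Gsta3, Gstm1 and Gstm2 did not always pass (limma adjusted p up to 0.1), and without mouse 57 or 60 all 4 were lost. Each of these 4 also lost its call in at least 1 setting with all samples.

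The change with age was then set against each other tissue in 1 fit of all 27 samples. It differed between liver and adipose tissue for 12 members, between liver and muscle for 7 and between adipose tissue and muscle for 9, where 15.6%, 17.5% and 14.7% of all genes tested were called. The 3 comparisons share samples. Gpx1 and Gsta3, described above, Gstp1 and the mu-class genes made up much of the liver contrasts. For Gstp1 the liver change was lower than that in adipose tissue by 1.52 ± 0.29 (limma adjusted p = 0.00125) and lower than that in muscle by 1.17 ± 0.29 (adjusted p = 0.00731). Gstm2 rose more in liver than in adipose tissue by 1.93 ± 0.44 (adjusted p = 0.00504) and than in muscle by 1.49 ± 0.44 (adjusted p = 0.0216), and Gstm1 differed between liver and muscle by 0.95 ± 0.27 (adjusted p = 0.0179). Gpx3 (1.99 ± 0.45), Gstm5 (2.12 ± 0.62) and Gstt2 (1.24 ± 0.37) were higher in liver relative to adipose tissue, and Gsto1 (-0.81 ± 0.17), Sod2 (-0.61 ± 0.20) and Prdx4 (-0.77 ± 0.24) lower. Gsta2 and Gstm3 were also called in both liver contrasts, but they were nearly unread in the other tissues, so that those differences are the liver change set against values near 0. In edgeR neither was called, with adjusted p of 0.837 and 0.798 against adipose tissue. All 7 calls against muscle, and those of Gpx1, Gpx3, Gsta3, Gstm2, Gstm3, Gsto1 and Gstp1 against adipose tissue, held in each of the 27 fits that left out 1 sample. Gstm5, Gstt2, Prdx4 and Sod2 were lost without X5F5001 (adjusted p 0.0526 to 0.0956) and Gsta2 without X5L5001, X5L5238 or liver mouse 18.

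Between adipose tissue and muscle the widest difference was that of Srxn1, 2.54 ± 0.62 (limma adjusted p = 0.00853). Sod3 differed by 1.57 ± 0.41 (adjusted p = 0.013), Prdx1 by 1.48 ± 0.50, Gclm by 1.34 ± 0.41, Gss by 0.93 ± 0.28 and Prdx4 by 0.71 ± 0.24, all higher in adipose tissue relative to muscle. Gpx3 (-1.31 ± 0.45), Gstt2 (-1.13 ± 0.37) and Gsta4 (-0.91 ± 0.29) were lower. Srxn1 and Sod3 stayed called in each of the 27 fits that left out 1 sample. Without adipose mouse 39, the other 7 were lost (adjusted p 0.0528 to 0.0886), and edgeR lost Gpx3, Gstt2 and Prdx4 (adjusted p = 0.123, 0.072 and 0.104).

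The Gstm genes lie side by side on chromosome 3 (107895854 to 108045179) in the order Gstm5, Gstm7, Gstm6, Gstm3, Gstm2, Gstm1 and Gstm4. In liver all 7 had a positive log2 change, and Gstm5, Gstm3 and Gstm2 passed. In muscle Gstm1 and Gstm2, next to each other, passed in opposite directions. In adipose tissue none passed, and Gstm7 ranged from 1.59 in mouse X5F5238 to 63.0 in mouse X5F5239 at 5 months and from 3.21 to 47.1, in mouse 36, at 20 months. Gstm5 in the same samples was 49.2, 70.2, 13.1 and 137 at 5 months and 64.6, 13.4, 9.84, 23.7 and 15.3 at 20 months. Both genes, and Gstm6, were lowest in mouse X5F5238 among the young and highest in mouse 36 among the old.

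**Figure D5:**
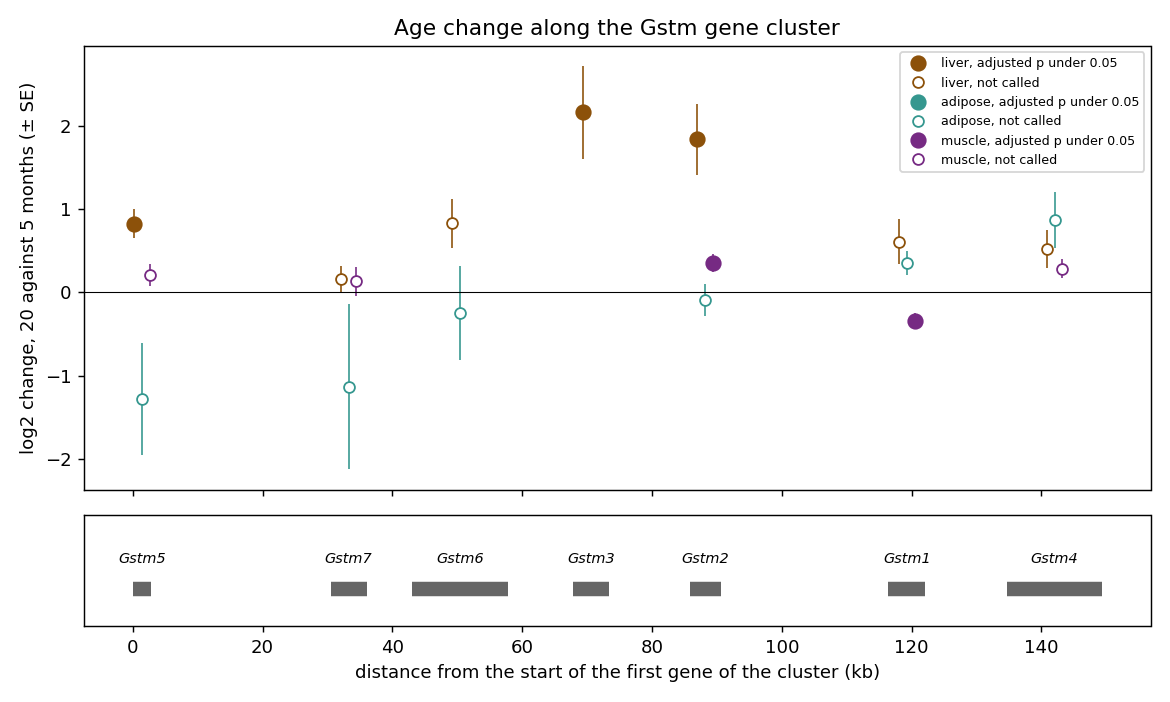
Log2 change at 20 against 5 months (vertical, ± SE) of the Gstm genes at their position along the cluster (horizontal, kilobases from the first base of Gstm5) in the 3 tissues, filled where the adjusted p was under 0.05. Liver changes peak at Gstm3 (2.17) and Gstm2 (1.84), and genes not tested in a tissue are not drawn.

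Among the regulators, Nfe2l2 did not pass in any tissue (log2 change 0.26 in liver, -0.22 in adipose tissue and -0.48 in muscle, limma adjusted p = 0.246, 0.361 and 0.0569). Keap1 was higher in adipose tissue (0.49 ± 0.12, adjusted p = 0.0277) with 0.00 in liver and 0.04 in muscle, and this call was lost in 6 of the 9 fits that left out 1 mouse (adjusted p up to 0.0823). Hmox1, the heme oxygenase, fell in muscle from 91.4, 104, 19.3 and 17.7 to 10.4, 12.9, 8.97, 11 and 8.62 (-1.96 ± 0.47, adjusted p = 0.0174), and had changes of 0.52 in liver and 0.87 in adipose tissue that did not pass. Txnip, which binds thioredoxin and is a known target of Mondo and Mlx, fell in muscle from between 1717 and 2039 to between 1325 and 1437 (-0.44 ± 0.09, adjusted p = 0.00871), and had -0.48 in liver and -0.70 in adipose tissue (adjusted p = 0.133 and 0.076). Slc7a11, the cystine carrier, was tested in adipose tissue alone (0.33, adjusted p = 0.559).

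The wider pathway was read from gene lists, against 10% of all genes tested higher and 9.79% lower in liver, 9.75% and 9.35% in adipose tissue, and 9.13% and 10.1% in muscle. Of Nrf2 targets and redox partners outside the members, 2 of 31 tested rose and 0 fell in liver, 3 rose and 5 fell of 31 in adipose tissue, and 3 rose and 9 fell of 29 in muscle. Cbr3 (0.83) and Abcc4 (0.62) were those of liver, and Ephx1 (1.14) and Sesn3 (1.34) rose and Maff (-1.29) and Sesn2 (-1.16) fell in adipose tissue. In muscle Sesn1, a stress-inducible sestrin, fell from a mean of 232 to 68.5 (-1.73) while Sesn3 (0.90) and Cbr1 (0.59) rose. Of the NADPH-supplying enzymes, 0 of 13 passed in liver, 4 of 14 rose in adipose tissue, led by Idh1 (1.09) and Pgls (0.77), and 3 of 14 fell in muscle, led by H6pd (-0.73) and G6pdx (-0.58).

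Of the glutathione cycle and precursor genes, 1 rose and 5 fell of 22 in liver, 2 and 6 of 23 in adipose tissue and 1 and 4 of 21 in muscle. Mat1a, which makes S-adenosylmethionine in liver, fell from a mean of 17190 to 6576 (-1.4) and Gls2 by 0.77 on the log2 scale, whereas the glutathione-degrading Chac2 rose (0.55). In adipose tissue Cbs (-1.79) and Chac1 (-1.66) fell and Anpep (1.53) was among those that rose. In muscle glutamine synthetase, Glul, fell from 1616 to 331 (-2.29) and Dpep1 by 1.19, and Chac2 rose (0.40). The list of selenoproteins and of genes for their synthesis and transport gave 5 higher and 0 lower of 16 in liver. Among those higher were Selm (0.83) and Sepw1 (0.68), which are themselves selenoproteins. In adipose tissue the list gave 0 and 1 of 17, the latter being Sephs2 (-1.0), which makes selenophosphate. In muscle it gave 3 and 1 of 16, with Sephs1 (0.51) and Pstk (0.50) higher and Secisbp2 (-0.43) lower.

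Other thiol and Gst-like genes gave 1 higher and 1 lower of 18 in liver (Mgst3 1.35 and Txnl1 -0.39), 4 and 0 of 20 in adipose tissue (Mgst2 0.81 and Ptges 0.75 among them) and 2 and 0 of 19 in muscle (Glrx3 0.43 and Msrb3 0.38). Oxidant-producing enzymes gave 5 and 1 of 13 in liver, 5 and 1 of 14 in adipose tissue and 1 and 3 of 10 in muscle. The phagocyte oxidase gene Ncf1 rose in liver (1.34), and Ncf4 (1.99) and Cybb (1.80) rose in adipose tissue, beside the macrophage sums given above. Hao2 was listed at 0 in all 5-month livers and had a mean of 3.23 at 20 months. Uox fell in liver (-0.61), and Xdh fell in adipose tissue (-1.09) and muscle (-1.13), where Nox4 (-1.34) also fell and Maob (0.52) rose.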

How the data were processed

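RNA from 27 MlxKO tissue samples was sequenced from directional libraries. The deposited signal values, which the authors made in CLC Genomics Workbench with the builds GRCm38.p6 and mm10 (submitters' processing notes), are reads per gene divided by 1 factor per sample. Multiplying by that factor returned whole reads for 100% of values in each sample (tolerance 0.01). All sample columns were mapped, 0 were left unused, and age followed the labels, although column headings carry 18 for the older mice. Replicate files were distinct.

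Age was tested per tissue with limma 3.58.1 (R 4.3.3, trend) on log2(value + 1), for genes reaching 1 in 4 or more samples, p-values being adjusted over all genes tested (Benjamini-Hochberg). Tissues were compared in 1 fit of 27 samples. Alternatives were pseudocounts 0.1 and 0.5, filters, scalings, a length and GC trend, the recovered reads in DESeq2 1.42.0 and edgeR 4.0.16, leaving out each mouse, and mouse as a replicate block. The fits were tested on simulated data.

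Same-numbered 5-month samples come from the same mouse. Their deviations correlated at 0.136 on average over 12 pairs (-0.0169 to 0.294), and at -0.045 between different mice. All members past the threshold, and the main enzymes whether or not they passed, were named, and of each pathway list the genes with the largest rise or fall. Members and lists were chosen with earlier results of these data known. For 8 selenoprotein genes the symbol was matched to an older one by gene ID. Counting across overlapping genes (such as Prdx5 and Trmt112, Gstz1 and Pomt2, Gpx8 and Cdc20b) is not given in the sources used here.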

Additional observations from a re-analysis of the deposited data

Results flagged for a closer look

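Of 56 groups of 4 or 5 samples examined for members past the age threshold, 4 held a sample far from the others, where chance alone marks about 1 in 20 groups. The liver of mouse 16 had Gstp1 at 1647 beside 670 to 843 in the other 20-month livers. Adipose tissue of mouse 36 had Gpx3 at 898 (others 220 to 416), and that of mouse 38 had Prdx4 at 26.8 (others 18.4 to 20.5). Muscle of mouse 56 had Srxn1 at 207 (others 58.4 to 88.3). In all 4 the distant value was the highest of the 20-month mice.

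The age change differed between tissues by the test of the difference itself in 28 cases over 19 members. All values are log2 differences in limma at an adjusted p under 0.05. Liver minus adipose tissue gave 2.29 for Gsta3, 2.14 for Gstm3, 2.12 for Gstm5, 1.99 for Gpx3, 1.93 for Gstm2, 1.24 for Gstt2, 1.24 for Gpx1, 0.96 for Gsta2, -0.61 for Sod2, -0.77 for Prdx4, -0.81 for Gsto1 and -1.52 for Gstp1. Liver minus muscle gave 2.14 for Gstm3, 1.72 for Gsta3, 1.49 for Gstm2, 1.17 for Gsta2, 0.98 for Gpx1, 0.95 for Gstm1 and -1.17 for Gstp1. Adipose tissue minus muscle gave 2.54 for Srxn1, 1.57 for Sod3, 1.48 for Prdx1, 1.34 for Gclm, 0.93 for Gss, 0.71 for Prdx4, -0.91 for Gsta4, -1.13 for Gstt2 and -1.31 for Gpx3. The 20-month tissues carried different mouse numbers, and whether any of them shared a mouse is not given in the labels. If the mice differed, tissue and animal cannot be told apart at that age. If some were shared, their pairing was not modelled.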

How the results depend on the processing

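The number of members called for age depended on the setting. In liver, 9 became 19 when the scaling left out the 20 most abundant genes, 15 in DESeq2 and 14 with all 27 samples in 1 fit, and 2 (without 5-month mouse X5L5001) to 16 (without 20-month mouse 16) with 1 mouse left out. In adipose tissue, 9 became 3 with no filter, 17 in DESeq2 and 21 with all samples in 1 fit, and 2 (without X5F4299) to 15 (without X5F5239) with 1 mouse left out. In muscle, 10 became 3 with all samples in 1 fit, and 6 (without 57) to 15 (without X5S5238) with 1 mouse left out. For the difference between adipose tissue and muscle, 9 became 5 with a pseudocount of 0.1, 4 with no filter and 2 (without adipose mouse 39) to 13 (without adipose mouse 36). With 1 sample left out, liver against adipose tissue ranged from 9 to 15 and liver against muscle from 7 to 9, and the 5-month level differences from 42 to 45, 39 to 41 and 29 to 31.

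With mouse as a replicate block the differences of age change numbered 13, 7 and 10 and the 5-month differences 45, 40 and 30. The paired fit added Gstt1 (liver against adipose tissue, limma adjusted p = 0.0466), Cat (adipose tissue against muscle, 0.0455) and the 5-month level of Gss (adipose tissue against muscle, 0.0418), and changed no other call of a member. Among values called in the main fit or in the alternative, a single one reversed. It was the liver minus adipose difference of Gsta2 in edgeR (-0.36, adjusted p = 0.837), a gene nearly unread in adipose tissue. Over the settings with all samples, 1224 single values kept their status as called or not called, 54 lost the call and 36 gained it. Values called in neither fit were counted as kept even where their sign changed. The liver change of Sod1, for example, ran from -0.25 to 0.26 over these settings. The causes were not tested, apart from fewer samples when 1 was left out.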
